A study of Homo sapiens with 4 samples.

Results

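PAX5 and 4 other genes of the B-lymphocyte lineage, EBF1, CD79A, CD79B and BLNK, were followed by RNA-seq in THP-1, a cell line established from a human monocytic leukaemia. The 5 genes were picked by name out of 25680 gene names in the tables, with earlier results of the same comparison known, so their differences between groups are given as a description and carry no test. The tested cells carried a lentivirus with an shRNA against PIWIL4 (PGP-shPIWIL4, n = 2 libraries), and the control cells a lentivirus with a scrambled shRNA (PGP-Scrambled, n = 2 libraries). Both groups were THP-1 cells grown in the same medium and sorted 48 hours after transduction, and both therefore carried a lentiviral hairpin. The study deals with PIWIL4, a PIWI protein of the Argonaute family, in acute myeloid leukaemia. A second hairpin or a rescue of PIWIL4 is not among the samples, so an effect of lower PIWIL4 and any other effect of this hairpin cannot be told apart.

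B-cell identity is built by a small set of transcription factors. EBF1 opens chromatin in early progenitors and switches on PAX5, and PAX5 then activates B-cell genes and represses genes of other blood lineages, a role worked out mainly in mice. CD79A and CD79B encode the signalling chains of the B-cell receptor, and BLNK encodes the adaptor that couples the kinase SYK to downstream enzymes. In the blood-forming system PAX5 is normally restricted to B cells, and monocytes lack the B-cell receptor.

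Total counts ranged from 50689304 to 53657246 in the shPIWIL4 libraries and from 31458079 to 51655687 in the Scrambled libraries. The targeted gene, PIWIL4, had 17.8 and 17.4 CPM (counts scaled to library size with TMM factors) in shPIWIL4 libraries 1 and 2, against 38.5 and 37.2 CPM in Scrambled libraries 1 and 2. It was lower in shPIWIL4 by 2.15-fold (log2 fold change -1.10, SE 0.09), with a Benjamini-Hochberg adjusted p = 1.3e-05 by the quasi-likelihood test of edgeR. Of 16108 genes tested in the same fit, 57.7% were called at an adjusted p under 0.05, with 28.7% higher and 29.1% lower in shPIWIL4. The labels name no batch and do not say whether the replicates were separate cultures, so p-values measure the spread between these libraries, which may be technical.

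THP-1 cells in both groups had transcripts of the listed monocyte markers, which include granule genes. They had few or no counts for most listed B-cell markers. All 20 monocyte markers passed the low-count filter, and their summed level was 10092 to 14158 TPM (the authors' level per transcript length, comparable between genes) in shPIWIL4 libraries, against 5640 to 6758 TPM in Scrambled libraries. The higher sum came from few genes, chiefly LYZ and the granule protease gene PRTN3. LYZ had 2499 and 2431 TPM in shPIWIL4 libraries against 187 and 203 TPM in Scrambled libraries. The granule genes AZU1 and ELANE were higher mainly in shPIWIL4 library 1. AZU1, PRTN3 and ELANE were each at 1009 TPM or more in every library, a large part of the sum in both groups. CD14 was low, at 2.85 and 1.92 TPM in shPIWIL4 libraries and 1.92 and 2.24 TPM in Scrambled libraries. CD86 had 0.539 and 0.641 TPM in shPIWIL4 libraries against 3.97 and 3.91 TPM in Scrambled libraries. Of the 20 markers, 8 rose and 5 fell (CSF1R, MPO, CD4, CSF3R and CD86). That is 65.0% called, near the 57.7% over all tested genes. The list median was 0.034 on the log2 fold scale. The 11 B-cell markers summed to 7.28 to 7.42 TPM in shPIWIL4 libraries and to 19.7 TPM in each Scrambled library. Of these, VPREB1, which encodes part of the surrogate light chain, was at 0 counts in all 4 libraries. MS4A1, the gene of the B-cell surface protein CD20, had 0 and 1 counts in shPIWIL4 and 0 and 1 in Scrambled. A further 4 markers, CD22, CXCR5, VPREB3 and FCRLA, had at most 6 counts in any library.

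**Figure D1:**
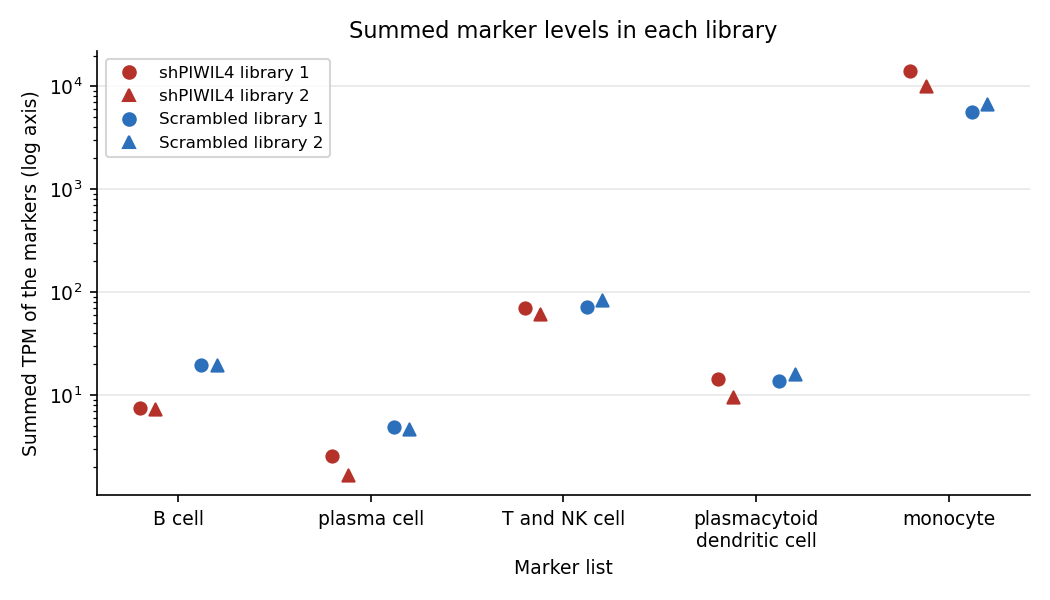
Summed TPM of 5 marker lists (log axis) in each of the 4 libraries, with shPIWIL4 in red and Scrambled in blue, circles for library 1 and triangles for library 2. The B-cell sum lies between 7.28 and 7.42 TPM in shPIWIL4 libraries and at 19.7 TPM in both Scrambled libraries, and the monocyte sum lies between 5640 and 14158 TPM.

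The 2 other lymphoid lists and the dendritic list were also low. The 17 markers of T and NK cells summed to 61.4 to 69.8 TPM in shPIWIL4 libraries and to 71.9 to 83.2 TPM in Scrambled libraries, with 6 markers at 0 in all 4 libraries, and nearly all of the sum came from NKG7 (59.0 to 67.9 TPM in shPIWIL4 and 68.2 to 78.8 TPM in Scrambled). The 10 markers of plasmacytoid dendritic cells, which share several genes with B cells, summed to 9.56 to 14.3 TPM in shPIWIL4 and to 13.6 to 15.9 TPM in Scrambled, and their defining gene CLEC4C was at 0 in all 4 libraries. IL3RA is also listed at 0, but so are SLC25A6, CD99 and ASMTL, widely expressed genes of the same region shared by the X and Y chromosomes (looked up after the 0 was seen), so the 0 of IL3RA is not read as a low level. The 6 plasma cell markers summed to 1.67 to 2.57 TPM in shPIWIL4 and to 4.64 to 4.94 TPM in Scrambled. In bulk RNA, fewer cells with a transcript and less of it per cell cannot be told apart.

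PAX5 was the most abundant of the 5 genes in shPIWIL4 cells and was higher there than in control cells. Its level was 15.05 and 13.9 TPM in shPIWIL4 libraries 1 and 2, from 3253 and 3195 counts, against 8.91 and 9.71 TPM in Scrambled libraries 1 and 2, from 1287 and 2262 counts. Both shPIWIL4 libraries lay above both Scrambled libraries. In CPM the means were 62.8 ± 1.9 in shPIWIL4 and 41.7 ± 1.6 in Scrambled (SD, n = 2 each), a log2 fold change of 0.59 (SE 0.08), or 1.51-fold higher. PAX5 stood above 70.4% and 70.0% of all gene names by TPM in the shPIWIL4 libraries and above 64.2% and 64.6% in the Scrambled libraries. Its level rests on a gene model of 8966 bases, recovered from the authors' FPKM values, and the gene-level counts do not show which exons or isoforms the reads came from.

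EBF1, which acts upstream of PAX5 in B-cell progenitors, was barely detected in either group. It had 2 and 4 counts in shPIWIL4 libraries 1 and 2 and 2 and 5 counts in Scrambled libraries 1 and 2, which is 0.0157 and 0.0296 TPM in shPIWIL4 and 0.0235 and 0.0365 TPM in Scrambled. The groups overlapped. EBF1 was the member of the 5 that did not pass the low-count filter, and at counts close to the limit that a count of 0 allows (3 counts per library) no fold change is given.

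CD79A and CD79B, whose proteins work only as a pair on the B-cell surface, were both lower in shPIWIL4 cells but by unequal amounts. CD79A had 0.495 and 0.372 TPM in shPIWIL4 libraries 1 and 2, from 15 and 12 counts, against 3.21 and 3.36 TPM in Scrambled libraries 1 and 2, from 65 and 110 counts. CD79B had 5.09 and 4.75 TPM in shPIWIL4 libraries, from 155 and 154 counts, against 9.13 and 9.56 TPM in Scrambled libraries, from 186 and 314 counts. For both genes each shPIWIL4 library lay below each Scrambled library. In CPM, CD79A averaged 0.263 ± 0.046 in shPIWIL4 and 2.06 ± 0.026 in Scrambled (SD, n = 2 each), a log2 fold change of -2.96 (SE 0.24), or 7.79-fold lower. CD79B averaged 3.01 ± 0.068 CPM in shPIWIL4 and 5.90 ± 0.065 CPM in Scrambled (SD, n = 2 each), a log2 fold change of -0.97 (SE 0.13), or 1.96-fold lower.

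The unequal difference of the pair can be read within each library, where scaling between libraries has no part. The gene models of CD79A and CD79B have almost the same length, 1258 and 1264 bases. CD79A made up 8.82% of the counts of the pair in shPIWIL4 library 1 (exact Clopper-Pearson 95% interval 5.02% to 14.1%) and 7.23% in shPIWIL4 library 2 (3.79% to 12.3%). The share was 25.9% in Scrambled library 1 (20.6% to 31.8%) and 25.9% in Scrambled library 2 (21.8% to 30.4%). Both shares in shPIWIL4 lay below both in Scrambled, and the 2 Scrambled libraries were almost equal despite their different depths. The intervals cover counting error only, while over genes in general the libraries of a group differed by more than that. They are no test between groups, since both genes were picked with this comparison known.

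BLNK, the adaptor downstream of the receptor, was low in both groups and differed least among the 4 genes with enough counts. It had 0.885 and 0.811 TPM in shPIWIL4 libraries 1 and 2, from 39 and 38 counts, against 1.12 and 1.05 TPM in Scrambled libraries 1 and 2, from 33 and 50 counts. Both shPIWIL4 libraries lay below both Scrambled libraries, at a log2 fold change of -0.39 with an SE of 0.22. With at most 50 counts in any library, the size of this difference is poorly fixed.

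**Figure D2:**
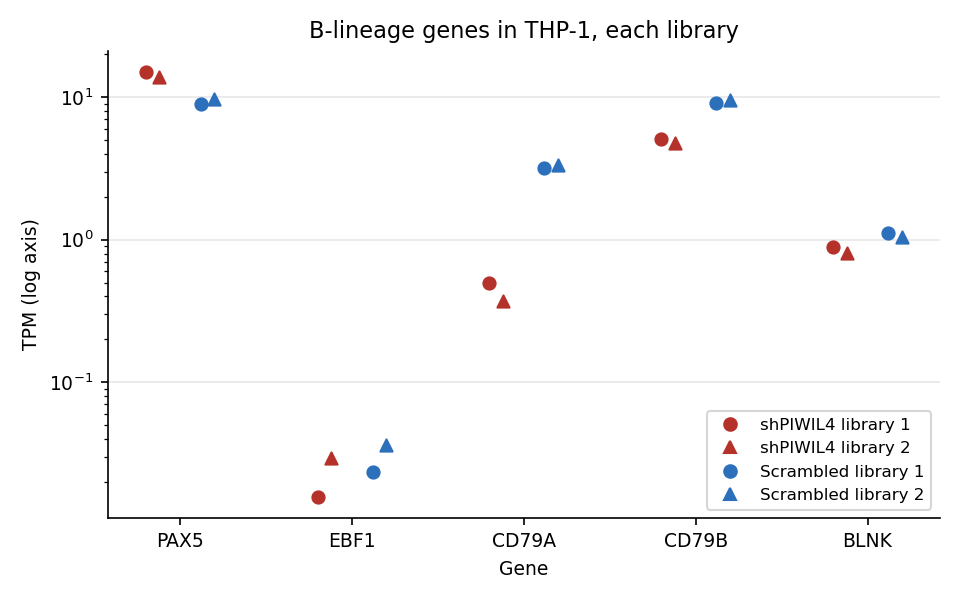
TPM (log axis) of PAX5, EBF1, CD79A, CD79B and BLNK in each library, with shPIWIL4 in red and Scrambled in blue, circles for library 1 and triangles for library 2. PAX5 is higher in shPIWIL4, CD79A, CD79B and BLNK are lower, and EBF1 overlaps between groups at 0.0365 TPM or less.

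The order of the 5 levels therefore differed between the groups. In shPIWIL4 cells PAX5 came first at 14.5 TPM, followed by CD79B at 4.92, BLNK at 0.848, CD79A at 0.433 and EBF1 at 0.0226 TPM. In Scrambled cells CD79B and PAX5 were level at 9.34 and 9.31 TPM, within the spread of their libraries, and were followed by CD79A at 3.29, BLNK at 1.09 and EBF1 at 0.03 TPM. The ratio of PAX5 to CD79B in TPM was 2.96 and 2.93 in shPIWIL4 libraries 1 and 2, against 0.976 and 1.02 in Scrambled libraries 1 and 2. The groups did not overlap in CPM for the 4 members that passed the filter, 1 higher and 3 lower, where 78.6% of all tested genes did not overlap.

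The 3 promoters below are shown because PAX5 was higher in shPIWIL4 while CD79A and BLNK were lower. Each runs 5′ to 3′ on the gene's own strand over 300 bases around the RefSeq start (GRCh38.p14), and capitals mark every match to one of 4 short motifs on either strand. The PAX5 window is chr9:37034219-37034518 on the minus strand, the CD79A window chr19:41877029-41877328 on the plus strand and the BLNK window chr10:96271520-96271819 on the minus strand.
PAX5: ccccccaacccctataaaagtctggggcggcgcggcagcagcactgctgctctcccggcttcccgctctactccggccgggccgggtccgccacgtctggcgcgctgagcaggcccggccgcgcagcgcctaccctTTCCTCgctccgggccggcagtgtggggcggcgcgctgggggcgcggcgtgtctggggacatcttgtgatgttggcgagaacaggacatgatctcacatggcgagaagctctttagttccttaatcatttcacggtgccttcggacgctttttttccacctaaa
CD79A: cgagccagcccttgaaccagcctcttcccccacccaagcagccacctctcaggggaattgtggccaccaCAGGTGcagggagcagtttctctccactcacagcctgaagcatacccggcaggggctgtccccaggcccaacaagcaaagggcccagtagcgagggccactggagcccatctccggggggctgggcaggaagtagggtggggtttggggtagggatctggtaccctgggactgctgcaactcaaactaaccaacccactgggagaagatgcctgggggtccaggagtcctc
BLNK: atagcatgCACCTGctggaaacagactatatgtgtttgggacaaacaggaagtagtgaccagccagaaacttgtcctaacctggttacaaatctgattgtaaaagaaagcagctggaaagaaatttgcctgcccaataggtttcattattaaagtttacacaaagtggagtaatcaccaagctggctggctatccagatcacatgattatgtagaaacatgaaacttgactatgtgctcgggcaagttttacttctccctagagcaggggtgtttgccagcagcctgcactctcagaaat

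The motifs were CCCNNGGG for EBF factors, TGCAAAT for octamer factors, GAGGAA for the PU.1 type of ETS factor and CAGGTG for E2A-type E-boxes. The E-box letters were found once in the CD79A window, starting 181 bases before the start, and once in the BLNK window on the opposite strand, starting 242 bases before the start. They occur in 20.6% of 35116 promoter windows of the same length. The PAX5 window held 1 match to the PU.1 letters, on the opposite strand, which 27.9% of all windows have. No match to the EBF letters (19.1% of all windows) or the octamer letters (4.20%) was found in the windows of PAX5, EBF1, CD79A or BLNK. These are the 4 genes of the 5 with an entry in the promoter table. Only exact letters were searched, so sites that differ from them could be missed, and no PAX5 motif was searched. The G and C content was 65.0% for PAX5 and 63.0% for CD79A, against 42.7% for BLNK and a median of 58.7% over all windows.

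The annotated protein-coding neighbours of the 5 genes did not share a direction with them in every case. Beside PAX5 lie MELK, a kinase gene of dividing cells, and ZCCHC7. MELK averaged 41.1 ± 5.2 CPM in shPIWIL4 and 23.0 ± 2.8 CPM in Scrambled, and ZCCHC7 averaged 26.3 ± 1.9 CPM in shPIWIL4 and 32.8 ± 0.96 CPM in Scrambled (SD, n = 2 each). MELK rose by 0.84 and ZCCHC7 fell by 0.32 on the log2 scale (adjusted p = 3.4e-04 and 0.019 in edgeR's quasi-likelihood test). PAX5, between them, shared the direction of MELK.

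Next to CD79B lies SCN4A, the gene of the skeletal muscle sodium channel, and on the other side GH1, the growth hormone gene. SCN4A had 18 and 10 counts in shPIWIL4 libraries and 68 and 116 in Scrambled libraries, a log2 fold change of -2.98 (SE 0.27, adjusted p = 2.1e-05 in edgeR's quasi-likelihood test). GH1 had at most 12 counts in any library. CD79A lies between RPS19, a ribosomal protein gene that fell by 0.50 (adjusted p = 1.7e-03 in edgeR's test), and ARHGEF1, whose log2 fold change was -0.15 (SE 0.14, adjusted p = 0.39 in edgeR's test). EBF1 lies between CLINT1 and RNF145, at log2 fold changes of -0.22 (SE 0.08) and -0.17 (SE 0.09). BLNK lies next to DNTT, which was at 0 in all 4 libraries, and overlaps ZNF518A in the annotation. ZNF518A averaged 70.1 ± 2.4 CPM in shPIWIL4 and 95.1 ± 8.6 CPM in Scrambled (SD, n = 2 each), far above BLNK. The strand setting of the counting is not given in the sources used here, so reads from an overlapping gene on the other strand cannot be told apart.

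Among relatives of the 5 genes, some other members of the PAX and EBF families were detected at higher levels than EBF1. EBF3 was the most abundant EBF gene, with 11.9 and 11.5 TPM in shPIWIL4 libraries 1 and 2 against 36.5 and 39.3 TPM in Scrambled libraries 1 and 2. EBF4 had 0.385 and 0.295 TPM in shPIWIL4 libraries against 2.24 and 1.93 TPM in Scrambled libraries, and EBF2 had at most 2 counts in any library. EBF3 and EBF4 were both lower in each shPIWIL4 library than in each Scrambled library, at log2 fold changes of -1.74 (SE 0.08) and -2.65 (SE 0.22).

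In the PAX family, PAX5 was the most abundant gene in all 4 libraries. PAX8 followed with 1.69 and 1.48 TPM in shPIWIL4 libraries 1 and 2 against 3.27 and 3.10 TPM in Scrambled libraries 1 and 2, the opposite direction to PAX5. PAX6 had 0.409 to 0.694 TPM in shPIWIL4 and 0.431 to 0.555 TPM in Scrambled, with groups that overlap. The other PAX genes listed (PAX1, PAX2, PAX3, PAX4, PAX7 and PAX9) had at most 4 counts in any library. LCP2, which encodes SLP-76, the relative of BLNK used by T cells and myeloid cells, had 145 and 150 TPM in shPIWIL4 libraries against 146 and 148 TPM in Scrambled libraries, far above BLNK. CLNK, the third adaptor of that family, was at 0 in all 4 libraries.

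Genes of the B-cell receptor complex and B-cell surface fell more often than they rose in shPIWIL4 cells. Of 29 listed genes, 16 passed the low-count filter, and of these 9 fell and 4 rose, beside the 29.1% and 28.7% of all tested genes given above. Their median log2 fold change was -0.89, and that of all tested genes was -0.0034. Under a stricter filter 11 were tested, and 7 were lower and 2 higher. Genes on this list are not all restricted to B cells. The Fc receptor genes FCER2, which encodes CD23, and FCGR2B, which encodes an inhibitory receptor, had the smallest p-values among the genes that fell. FCER2 averaged 1.95 ± 0.062 CPM in shPIWIL4 and 7.61 ± 0.57 CPM in Scrambled (log2 fold change -1.97, SE 0.14, adjusted p = 5.6e-06), and FCGR2B averaged 0.467 ± 0.047 CPM in shPIWIL4 and 2.59 ± 0.39 CPM in Scrambled (-2.44, SE 0.22), with SD over n = 2 and edgeR's quasi-likelihood test.

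Several other surface genes moved the same way as CD79A and CD79B, while 4 of the 16 tested rose. The costimulatory receptor gene CD40 averaged 14.4 ± 0.56 CPM in shPIWIL4 and 28.5 ± 0.84 CPM in Scrambled, and CD27 averaged 2.86 ± 0.087 CPM in shPIWIL4 and 6.64 ± 0.12 CPM in Scrambled (SD, n = 2 each). The BAFF receptor gene TNFRSF13C fell by 1.13 (SE 0.21) and the surrogate light chain gene IGLL1 by 1.38 (SE 0.24). CR2, a complement receptor of B cells, had a log2 fold change of -0.84 with an SE of 0.40 and did not pass the test (adjusted p = 0.10 in edgeR's test). CD38, a surface enzyme found on many blood cells including monocytes, went the other way. It averaged 40.7 ± 1.5 CPM in shPIWIL4 and 17.2 ± 0.26 CPM in Scrambled (SD, n = 2 each). That is a rise of 1.24 on the log2 scale (SE 0.09, adjusted p = 7.2e-06 in edgeR's test). FCRL1, CD24 and CD81, named here after their values were seen, rose by 2.29 (SE 0.34), 1.42 (SE 0.23) and 0.52 (SE 0.09). FCRL1 had 36 and 42 counts in shPIWIL4 libraries against 4 and 9 in Scrambled libraries.

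Many of these surface genes are weakly expressed, and weakly expressed genes in general fell more often than they rose. Among 3902 tested genes with a mean of 1 to 10 CPM, 40.4% were lower and 17.5% higher in shPIWIL4, and among 2450 genes below 1 CPM 34.1% were lower and 9.27% higher. Among 7516 genes from 10 to 100 CPM, 23.6% were lower and 36.8% higher. Of the surface genes, 9 lay between 1 and 10 CPM, and 6 of these were lower and 1 higher. CD79A and CD79B lie in the same range of levels, and PAX5 lies in the range where rises outnumber falls. The part of the level in these differences was not tested.

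**Figure D3:**
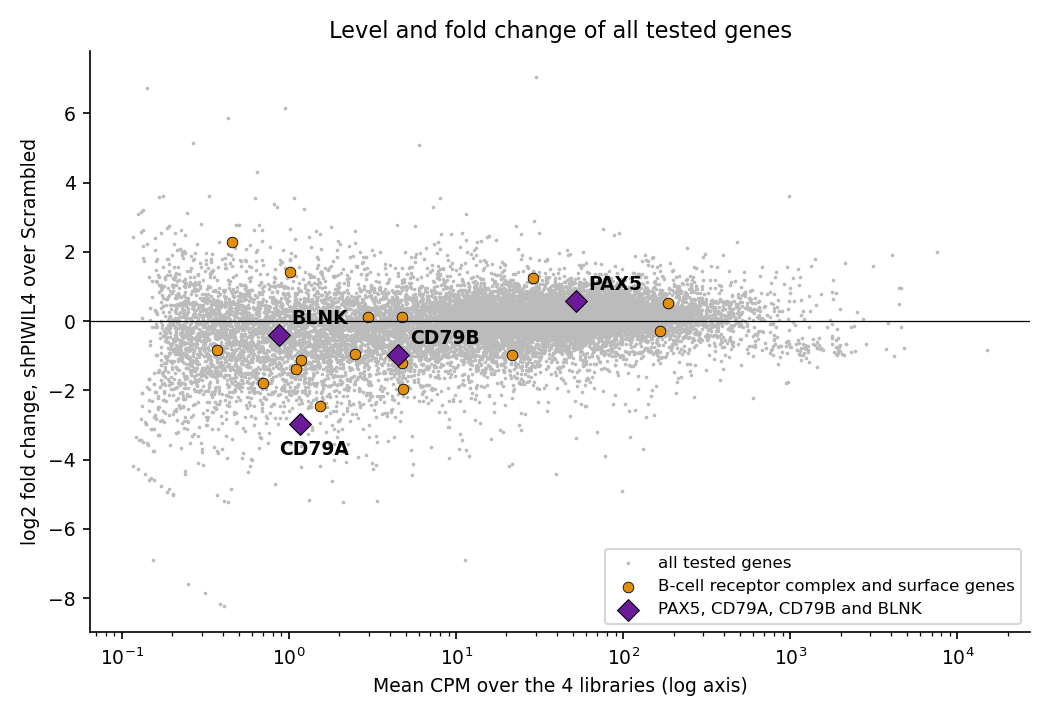
Log2 fold change of shPIWIL4 over Scrambled against the mean CPM over the 4 libraries (log axis) for each of 16108 tested genes (grey), with 16 B-cell receptor complex and surface genes in orange and PAX5, CD79A, CD79B and BLNK as purple diamonds. CD79A at -2.96 lies near the lower edge of the genes of its level, while CD79B at -0.97, BLNK at -0.39 and PAX5 at 0.59 lie inside the cloud.

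Genes downstream of the B-cell receptor were far more abundant than the receptor chains, and most of them are used by monocytes as well. Of 24 listed genes 23 were tested, and 11 fell and 4 rose, with a median log2 fold change of -0.25. Called genes made up 65.2% of those tested, near the 57.7% over all tested genes. The counts were 6 and 2 without Scrambled library 1, and 7 and 2 without Scrambled library 2. With upper-quartile factors they were 14 and 2. BLK, a Src-family kinase typical of B cells and named here after its values were seen, was at 0 in all 4 libraries.

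SYK, the kinase that binds the CD79 chains, rose, while CBL and INPP5D, which limit signalling, fell. SYK averaged 359 ± 30 CPM in shPIWIL4 and 189 ± 8.5 CPM in Scrambled (log2 fold change 0.92, SE 0.09, adjusted p = 3.9e-05 in edgeR's quasi-likelihood test, SD over n = 2). CBL, a ubiquitin ligase gene that limits receptor signalling, averaged 150 ± 9.1 CPM in shPIWIL4 and 352 ± 9.4 CPM in Scrambled, and INPP5D, which encodes the phosphatase SHIP1, averaged 393 ± 10 CPM in shPIWIL4 and 795 ± 18 CPM in Scrambled (SD, n = 2 each). They fell by 1.23 and 1.01 on the log2 scale. The kinase gene FYN fell by 0.60 (SE 0.09) and NFATC1, a calcium-regulated transcription factor gene, by 0.64 (SE 0.09). The adjusted p of these 4 falls was at most 4.7e-04 in edgeR's test.

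B-lineage transcription factors were called about as often as genes in general, in both directions. Of 25 listed genes other than PAX5 and EBF1, 22 were tested, and 8 rose and 6 fell, with a median log2 fold change of 0.043. That is 63.6% called, near the 57.7% over all tested genes. Without Scrambled library 2, 5 were higher. ETS1, a factor of lymphoid cells, averaged 65.9 ± 5.6 CPM in shPIWIL4 and 35.3 ± 1.3 CPM in Scrambled, and XBP1, a factor of secretory cells and of the unfolded protein response, averaged 178 ± 14 CPM in shPIWIL4 and 103 ± 2.1 CPM in Scrambled (SD, n = 2 each). These were rises of 0.90 and 0.78 (SE 0.09 each).

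The inhibitors of E proteins were among the factors that fell. ID3 averaged 0.899 ± 0.29 CPM in shPIWIL4 and 2.78 ± 0.29 CPM in Scrambled, and ID2 averaged 57.2 ± 5.6 CPM in shPIWIL4 and 92.9 ± 5.0 CPM in Scrambled (SD, n = 2 each). They fell by 1.62 (SE 0.23) and 0.70 (SE 0.09), and MEF2C fell by 0.54 (SE 0.08). The adjusted p of these 5 transcription factor genes was at most 3.9e-04 in edgeR's quasi-likelihood test. TCF3, the gene of the E protein E2A, had 59.5 and 40.8 TPM in shPIWIL4 libraries against 46.6 and 57.2 TPM in Scrambled libraries and did not pass the test (adjusted p = 0.60 in edgeR's test).

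**Figure D4:**
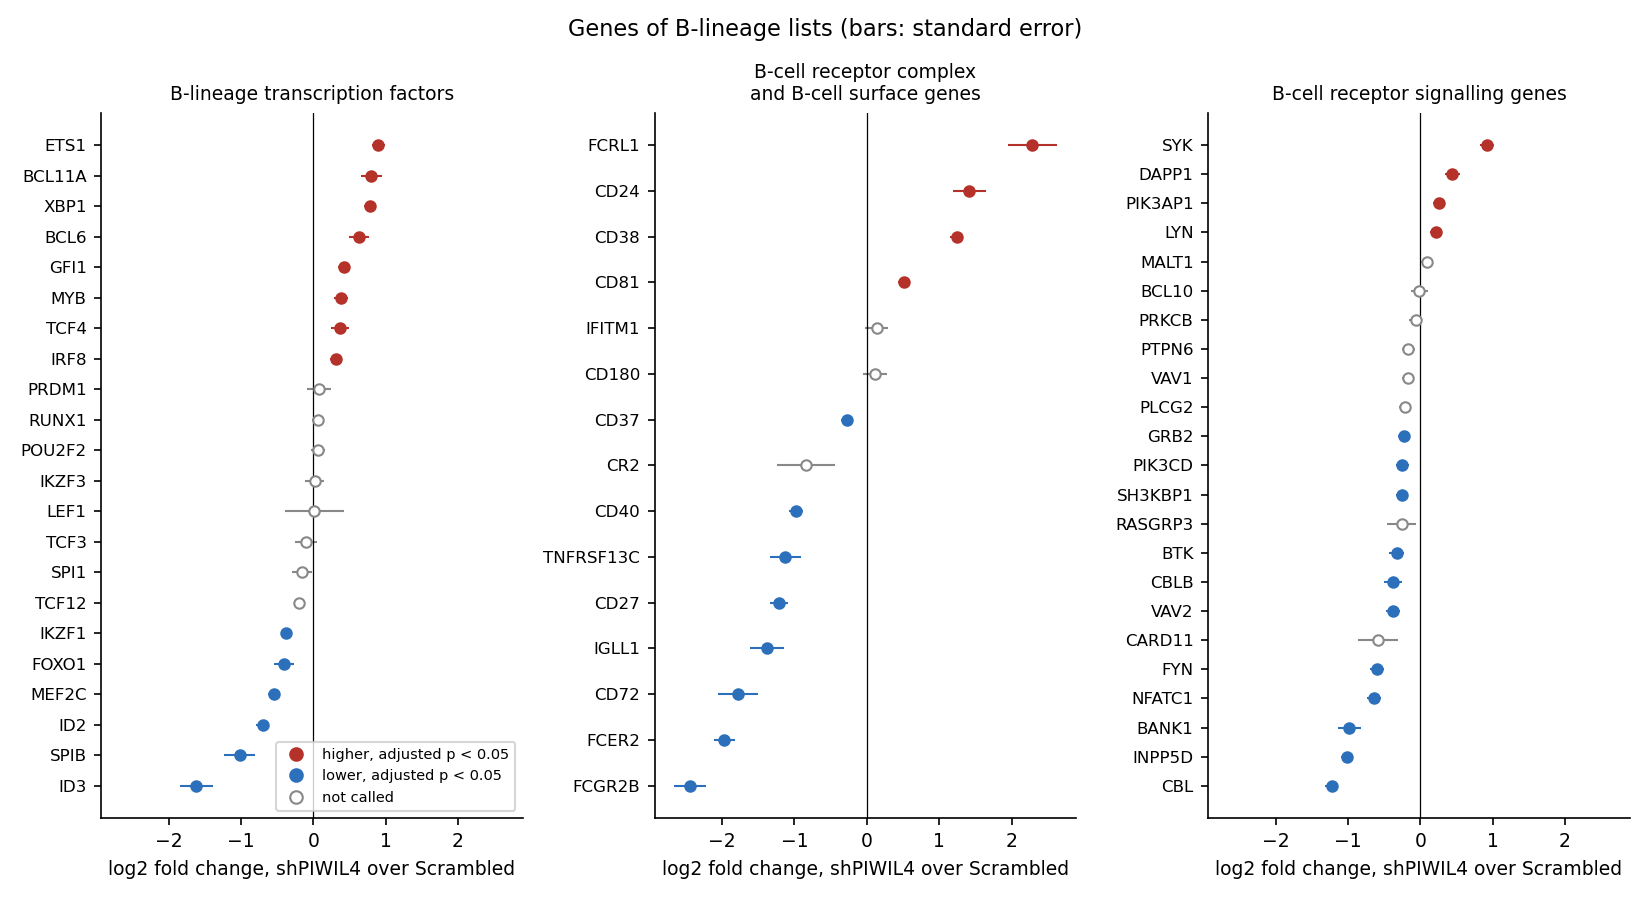
Log2 fold change of shPIWIL4 over Scrambled (points) with its standard error (bars) for tested genes of 3 lists, in red where higher and blue where lower at an adjusted p under 0.05 and open where not called. The surface genes drawn are 8 lower and 4 higher, signalling genes 11 lower and 4 higher, and transcription factors 6 lower and 8 higher.

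Genes known from mouse B cells as targets of Pax5 were few and are given by their values. Of 8 listed genes that Pax5 activates in mice, other than those already among the 5, 7 were tested, and 3 fell and 1 rose, with a median log2 fold change of -0.84. The share called, 57.1%, is near that of all tested genes (57.7%). FCER2 fell as given above, and SPIB, a factor of B cells, fell by 1.02 (SE 0.22, adjusted p = 3.1e-03 in edgeR's test). The rise was in IRF8, a factor that monocytes also need, at 487 ± 2.3 CPM in shPIWIL4 and 392 ± 3.0 CPM in Scrambled (SD, n = 2 each), a log2 fold change of 0.31. IRF8 did not pass with upper-quartile factors (adjusted p = 0.073) or without Scrambled library 1 or 2 (0.082 and 0.090), all in edgeR's test.

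Of 7 listed genes that Pax5 represses in mouse B cells, 5 were tested, and 3 rose and 1 fell, with a median log2 fold change of 0.39. Over all tested genes 28.7% rose and 29.1% fell, and 5 genes are too few to read a share from. Leaving out each library in turn gave 2 to 4 higher and 1 to 2 lower. NOTCH1, a receptor gene of T-cell fate, was called lower without shPIWIL4 library 1 (log2 fold change -0.27) and higher without shPIWIL4 library 2 (0.38), so its direction rests on 1 library. CSF1R, the receptor of a macrophage growth factor and a classic target of this repression, fell by 0.49 (SE 0.09, adjusted p = 9.6e-04 in edgeR's test), to 33.8 ± 0.54 CPM in shPIWIL4, against 47.5 ± 1.2 CPM in Scrambled (SD, n = 2 each). XBP1 rose as given above, and FLT3, a receptor of blood progenitors, and EMB, which encodes embigin, rose by 0.39 (SE 0.11) and 0.41 (SE 0.11). FLT3 did not pass with upper-quartile factors (adjusted p = 0.057) or without Scrambled library 2 (0.058), nor EMB without Scrambled library 1 (0.11), in edgeR's test. CD28, a T-cell costimulatory gene on this list, was at 0 in all 4 libraries. 

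Of the recombination genes of early lymphocytes, DNTT and RAG2 were at or near 0, and RAG1 was low but passed the low-count filter. DNTT was at 0 in all 4 libraries, and RAG2 had 3 and 2 counts in shPIWIL4 libraries against 5 and 8 in Scrambled libraries. RAG1 had 41 and 68 counts in shPIWIL4 libraries 1 and 2, which is 0.258 and 0.403 TPM, against 67 and 107 counts in Scrambled libraries 1 and 2, which is 0.632 and 0.626 TPM. Both RAG1 values in shPIWIL4 lay below both in Scrambled.

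The genes whose pattern over the 4 libraries was most like that of each member were not on the B-lineage lists used here. Likeness was the Euclidean distance between log2 CPM values centred per gene, over 13657 genes averaging 1 CPM or more, and is a description of 4 libraries in 2 groups. Nearest to PAX5 were the histone chaperone gene HIRA (distance 0.021), CPNE8 (0.023) and LAPTM5 (0.024), a gene of lysosomal membranes in blood cells. Nearest to CD79A were the immediate early gene EGR1 (0.085) and DNMT3L (0.092), and nearest to CD79B were SAMD8 (0.0046) and the ribosomal protein gene RPL3 (0.0097). TMC4 (0.034) and the DNA repair gene XPA (0.038) were nearest to BLNK, and MRPL42P5 (0.12) and SNORD57 (0.19) to EBF1, whose counts are too few for the likeness to carry weight. Between the members themselves the distances ran from 0.57 between EBF1 and BLNK to 3.39 between PAX5 and CD79A. The nearest genes have the smallest distances out of 13657 genes, so they lie closer by the way they were picked.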

How the data were processed

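RNA-seq of 4 THP-1 libraries (2 shPIWIL4, 2 Scrambled) was used. Titles set the groups, since in the libraries titled shPIWIL4 the treatment field also holds the word scrambled. PIWIL4 was lower in the libraries titled shPIWIL4. Reads were handled with STAR, featureCounts and DESeq2 on build hg19, per the submitters' processing notes, which give no version, annotation or strand setting. The authors deposited a raw read count, an FPKM value and a TPM value per gene and library. FPKM as deposited served to recover gene lengths, and TPM as deposited was used for levels between genes. The authors' table of normalized values was not used.

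Counts were tested with edgeR 4.0.16 (R 4.3.3): filterByExpr (minimum count 10, minimum total 15), TMM factors, robust quasi-likelihood F test with group as the only term, and Benjamini-Hochberg adjustment over all 16108 genes tested, called under 0.05. The SE is the log2 fold change divided by the square root of F. TMM takes most genes as unchanged between groups. The members and lists were chosen with earlier results of these data known. PIWIL4, the 5 members, up to 5 called genes per list with the smallest p, B-cell markers, neighbours, paralogs and nearest patterns were named by rule; the division by level was chosen after the data were seen. Some list genes enter the counts but are not reported here by name. JCHAIN was matched through a synonym. Neighbours and promoters came from RefSeq (GRCh38.p14), and no hg19 genome was used. Over 15642 and 15812 genes with at least 20 counts, chi-square per gene was 27.9 between shPIWIL4 libraries and 7.89 between Scrambled libraries, more than sampling noise. In simulated counts of this comparison over 15911 genes, 70% of the genes given a 1.5-fold change and 98% of those given a 2-fold change were called. Of 197 genes called there, 16 had been given no change. Only a small set of genes was changed in the simulation, whereas 57.7% were called in the data. These shares may therefore not hold for the data. Alternatives were DESeq2 1.42.0, other scaling factors and filters, a replicate block, and leaving out each library.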

Additional observations from a re-analysis of the deposited data

How the results depend on the processing

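The direction of PAX5, CD79A, CD79B, BLNK and PIWIL4 was the same under every alternative that gave a value, and PIWIL4 stayed below the threshold in all of them. Upper-quartile factors moved the median of all tested genes to -0.12 on the log2 scale, and PAX5 to 0.47, CD79B to -1.09 and BLNK to -0.51. CD79B was -1.02 with library totals, -0.93 without a low-count filter, -1.01 with a stricter filter and -0.93 from the authors' TPM. Leaving out each library in turn gave -3.14 to -2.79 for CD79A, -0.99 to -0.94 for CD79B and -0.46 to -0.31 for BLNK. The stricter filter removed BLNK, and EBF1 passed neither filter.

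For the lists, leaving out each library gave 5 to 8 transcription factors higher, 2 to 4 signalling genes higher and 6 to 12 lower, 0 to 1 Pax5-activated genes higher and 1 to 2 Pax5-repressed genes lower. With upper-quartile factors 2 signalling genes and 0 Pax5-activated genes were higher, and the stricter filter left 2 of 11 surface genes higher. Over all genes, upper-quartile factors gave 3446 higher and 5717 lower, against 4618 and 4683 with TMM. With the replicate block, 2 signalling genes and 0 Pax5-activated genes were higher (IRF8 had an adjusted p of 0.085 in edgeR's test), and 3921 genes were higher and 4197 lower over all. Same-numbered libraries deviated from their group means in opposite directions (correlation -0.31 over genes), so the numbers are not known to pair the samples. A crossed block, chosen after seeing the data, called 5728 genes higher and 5641 lower. Each fit without a library leaves 1 sample in a group, which is assumed to vary like the others.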
